A study of Mus musculus with 24 samples.

Results

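The data described here are miRNA levels in liver after 2 weeks on a diet that produces steatohepatitis (NASH, non-alcoholic steatohepatitis) or on chow. The mice were male C57BL/6NJcl animals, bought at 5 weeks of age, kept for 1 week and 8 weeks old when the liver was taken. The NASH group ate a choline-deficient high-fat diet (CDAHFD) with 0.1% methionine, and the control group ate the solid chow CE-2; the labels give no transgene or other treatment in either group. The model is therefore a dietary one, and the 2 diets differ in more than choline and fat. Each diet had 2 arrays (control replicates 1 and 2, NASH replicates 1 and 2) among the 24 arrays of the series, which also covers weeks 1 and 6 and serum. From 1881 mouse miRNAs on the array, the members were the 352 that the scanner software called detected on at least 2 of these 4 arrays. Detection on all 4 arrays was seen for 261 of them, and 91 were detected on 2 or 3. A change of 1 array in the rule would bear on the 61 members detected on exactly 2 arrays and on the 38 other miRNAs detected on exactly 1.

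A miRNA is a short RNA cut from a hairpin precursor; it guides Argonaute proteins to messenger RNAs that pair with its seed, bases 2 to 8, and lowers their output. The arm names 5p and 3p say which side of the hairpin a mature miRNA comes from. Hepatocytes carry a few miRNAs at very high level, above all miR-122-5p, and their nuclei also transcribe the linked pair miR-192 and miR-194. Leukocytes, stellate cells, endothelium and red cells each have miRNAs of their own. A bulk liver sample holds them all, at levels set by the cells present and by the amount per cell.

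Levels are log2 of a probe's signal divided by the 75th percentile of the signals on its array, so 1 unit is a 2-fold step and 0 is that percentile. A floor of -5.47 stands for signals too dim to order. Differences are NASH minus control in these log2 units. In liver the standard error (SE) is that of a limma fit over all 12 liver arrays, with p-values adjusted by Benjamini-Hochberg over the 388 miRNAs tested there. Values for serum, and for serum minus liver, come from another limma fit over all 24 arrays, adjusted over the 293 miRNAs tested in both tissues. Nothing in the labels tells separate mice from repeat arrays within a diet, so the p-values measure the spread between arrays, which may be technical. Values at the floor, 35.6% of those tested in liver, carry no spread. Where a group lies at the floor, the spread behind the p-value comes from the other values alone.

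The 4 arrays did not have the same signal. The scaling percentile was 481 and 488 on the control arrays and 505 and 700 on the NASH arrays, and the software detected 292 and 306 miRNAs on the former against 337 and 359 on the latter. Spike-in controls fell into 2 kinds: the 4 named hur were 0.36 to 0.41 log2 units brighter on NASH arrays, and the 4 named dmr differed by -0.09 to -0.01. All 4 arrays lay on a single slide, with the control arrays in column 1 and the NASH arrays in column 2, and column and diet cannot be told apart. No spot was saturated. Muscle miRNAs (0 of 6 listed) were not tested because fewer than 2 liver arrays detected them, and of 7 listed for pancreas and neuroendocrine cells a single one, miR-7a-5p, was a member.

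The mature sequences below, from the RefSeq table for GRCm38.p6, are those of the miRNAs that the results turn on, with the seed (bases 2 to 8) in capitals. RefSeq names matched 307 of the 352 members. The miRNAs shown first carry the main increases, and the last 5 of that set are later-numbered miRNAs rich in G.
miR-34a-5p: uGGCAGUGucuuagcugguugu
miR-342-3p: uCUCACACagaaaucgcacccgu
miR-214-3p: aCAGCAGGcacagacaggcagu
miR-223-3p: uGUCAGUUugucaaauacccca
miR-7118-5p: uGGGGAAGgcgggagagggaac
miR-3102-5p: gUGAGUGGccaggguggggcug
miR-8110: aAGCGUGGauugggggggggg
miR-8101: gGCGAGCGgagccggaggagcc
miR-5126: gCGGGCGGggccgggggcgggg
The next set carries the decreases: 4 miRNAs of hepatocytes, then members of the miR-30, let-7, miR-26 and miR-101 families; the 3 miR-101 sequences are offset from each other, so their bases 2 to 8 differ.
miR-192-5p: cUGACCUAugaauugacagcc
miR-194-5p: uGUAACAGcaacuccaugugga
miR-193a-3p: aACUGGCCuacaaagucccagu
miR-148a-3p: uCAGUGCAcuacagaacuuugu
miR-30a-5p: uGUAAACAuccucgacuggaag
miR-30c-5p: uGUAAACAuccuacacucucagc
miR-30e-5p: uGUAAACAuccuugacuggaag
let-7f-5p: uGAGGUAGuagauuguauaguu
let-7g-5p: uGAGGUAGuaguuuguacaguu
miR-26a-5p: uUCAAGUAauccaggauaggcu
miR-26b-5p: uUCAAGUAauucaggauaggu
miR-101a-3p: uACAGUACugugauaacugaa
miR-101b-3p: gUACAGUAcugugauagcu
miR-101c: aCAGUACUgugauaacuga
The last set holds near-identical pairs of the same seed whose members had unlike differences between the diets. In it let-7i-5p and let-7e-5p are not a pair with each other. The former is set against let-7g-5p and the latter against let-7f-5p, both printed above.
miR-27a-3p: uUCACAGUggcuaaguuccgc
miR-27b-3p: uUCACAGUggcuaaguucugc
miR-15b-5p: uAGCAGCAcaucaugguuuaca
miR-15a-5p: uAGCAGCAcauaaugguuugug
miR-99b-5p: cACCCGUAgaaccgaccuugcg
miR-99a-5p: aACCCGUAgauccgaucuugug
let-7i-5p: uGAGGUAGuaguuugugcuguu
let-7e-5p: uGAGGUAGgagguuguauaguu

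After 2 weeks of the NASH diet, miR-34a-5p, miR-342-3p, miR-214-3p and miR-223-3p were 3.36-fold to 8.12-fold higher in liver, and the hepatocyte miRNAs miR-122, miR-192 and miR-194 were lower by 2.03-fold to 3.68-fold. Of the 388 miRNAs tested, 119 passed an adjusted p of 0.05, which is 30.7%; 71 were higher (18.3%) and 48 lower (12.4%), and all 119 were members. The counts of the lists below are to be read against these shares. Among the 261 members detected on all 4 arrays, 54 rose, 43 fell and 164 did not pass, and their median difference was 0.04. Of the 119 calls, 79 had no value at the floor on any of the 4 arrays. At an unadjusted p of 0.05 the number of members was 170.

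The split between higher and lower depended on how arrays were put on a common scale. It was 25 higher and 26 lower with the 75th percentile taken over all probes, 64 and 74 with median centring, 46 and 62 with quantile normalization, 19 and 44 with normexp background correction, and 64 and 2 with no scaling at all. The same alternatives moved the median of the 261 members by -0.24, -0.06, -0.13, -0.19 and 0.20 log2 units. The sign held across the 4 other scalings (normexp aside) for 68 of the 71 higher and 45 of the 48 lower miRNAs; the exceptions were miR-93-5p, miR-185-5p, miR-574-3p, miR-22-3p, miR-23b-3p and miR-3473c. All differences below are therefore relative to the bright probes that set each array's percentile, and of the 48 decreases only that of miR-6412 passed without scaling. The other lower call there, miR-3620-3p, named after its values were seen, did not pass with the scaling used here (adjusted p = 0.085).

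**Figure D1:**
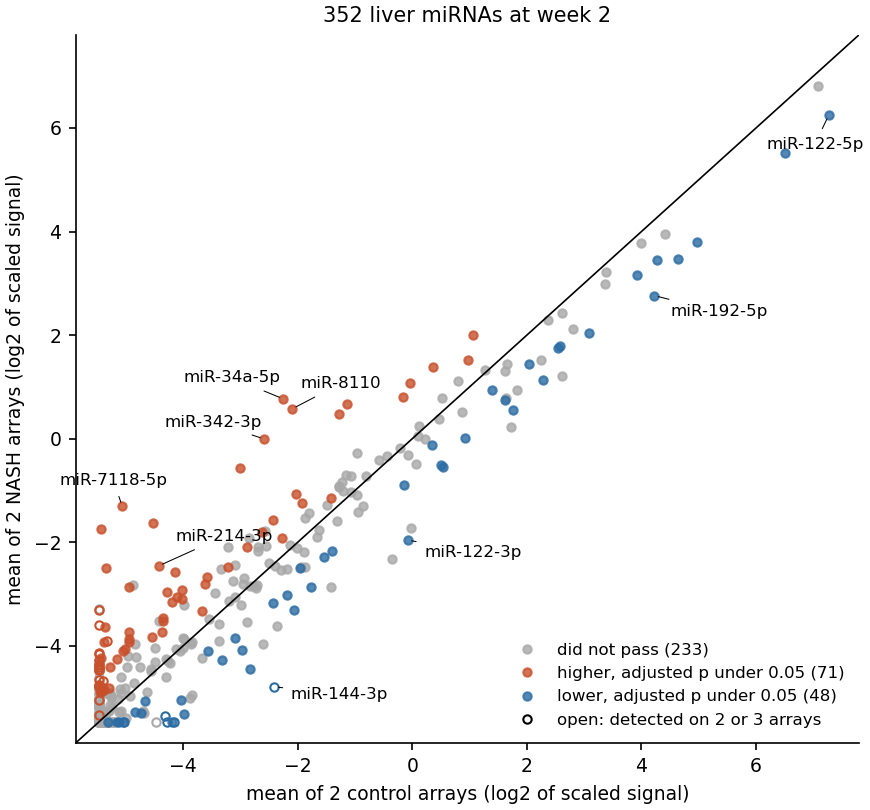
Mean level of each of the 352 members on the 2 control arrays (horizontal) and the 2 NASH arrays (vertical), both as log2 of scaled signal; orange and blue mark the 71 higher and 48 lower miRNAs, open symbols those detected on 2 or 3 arrays, and the line equal levels. The miRNAs labelled above the line include miR-34a-5p and miR-7118-5p, and those below it miR-122-5p and miR-192-5p.

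miR-34a-5p, whose gene p53 activates directly (chr4:150068473-150068494, plus strand), had levels of -2.47 and -2.04 on the control arrays and 0.81 and 0.73 on the NASH arrays. Both NASH arrays stood far above both control arrays. The difference was 3.02 (SE 0.20, adjusted p = 1.3e-04), 8.12-fold. It was the only one of the 7 listed miR-34 family members that was a member here; its call held in every alternative and without any single array.

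Hepatocyte-enriched miRNAs were lower as a list: of 13 members 10 fell, none rose and 3 did not pass, with a median difference of -0.95 against 0.04 over the 261. miR-122-5p, which supports cholesterol synthesis and hepatocyte identity, had levels of 7.25 and 7.29 on control arrays and 6.22 and 6.27 on NASH arrays. The groups did not overlap, and the arrays of each diet lay close together. The difference was -1.02 (SE 0.09, adjusted p = 5.6e-04), a 2.03-fold decrease. The other arm of that hairpin, miR-122-3p, had levels of -0.14 and -0.02 against -2.22 and -1.70, a difference of -1.88 (SE 0.27, adjusted p = 0.0025). Both NASH arrays were below both control arrays, and NASH replicate 1 was the lower. In bulk liver, fewer hepatocytes and less of these RNAs per hepatocyte cannot be told apart.

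miR-192-5p (chr19:6264857-6264877), a p53-responsive miRNA abundant in liver and gut, had levels of 4.19 and 4.26 in control and 2.53 and 2.99 in NASH liver. It fell by 1.46 log2 units (SE 0.23, adjusted p = 0.0038). Its partner miR-194-5p had levels of 2.25 and 2.30 against 1.02 and 1.23 and fell by 1.15 (SE 0.11, adjusted p = 6.6e-04). miR-192-3p, from the other arm, fell by 1.12, so that 3 of the 4 members from this chromosome 19 cluster fell together; the fourth, miR-194-2-3p, lay at the floor. miR-193a-3p and miR-193a-5p fell by 0.90 and 0.42, miR-365-3p by 0.76 and miR-455-3p by 0.95. miR-148a-3p, which has been tied to cholesterol uptake through the LDL receptor, fell by 0.80 (adjusted p = 0.028). That last call was lost without control replicate 1 (adjusted p = 0.067), control replicate 2 (0.135) or NASH replicate 1 (0.131). The 3 that did not pass were miR-802-5p, at -4.04 and -4.07 against -4.61 and -3.59, miR-455-5p, and miR-193b-3p near the floor. The summed signal of the 13 members, in log2, was 7.53 and 7.58 in control and 6.45 and 6.54 in NASH liver. Without scaling the list had 0 lower calls, although each of the 10 kept a negative difference; miR-122-5p was then at -0.73.

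**Figure D2:**
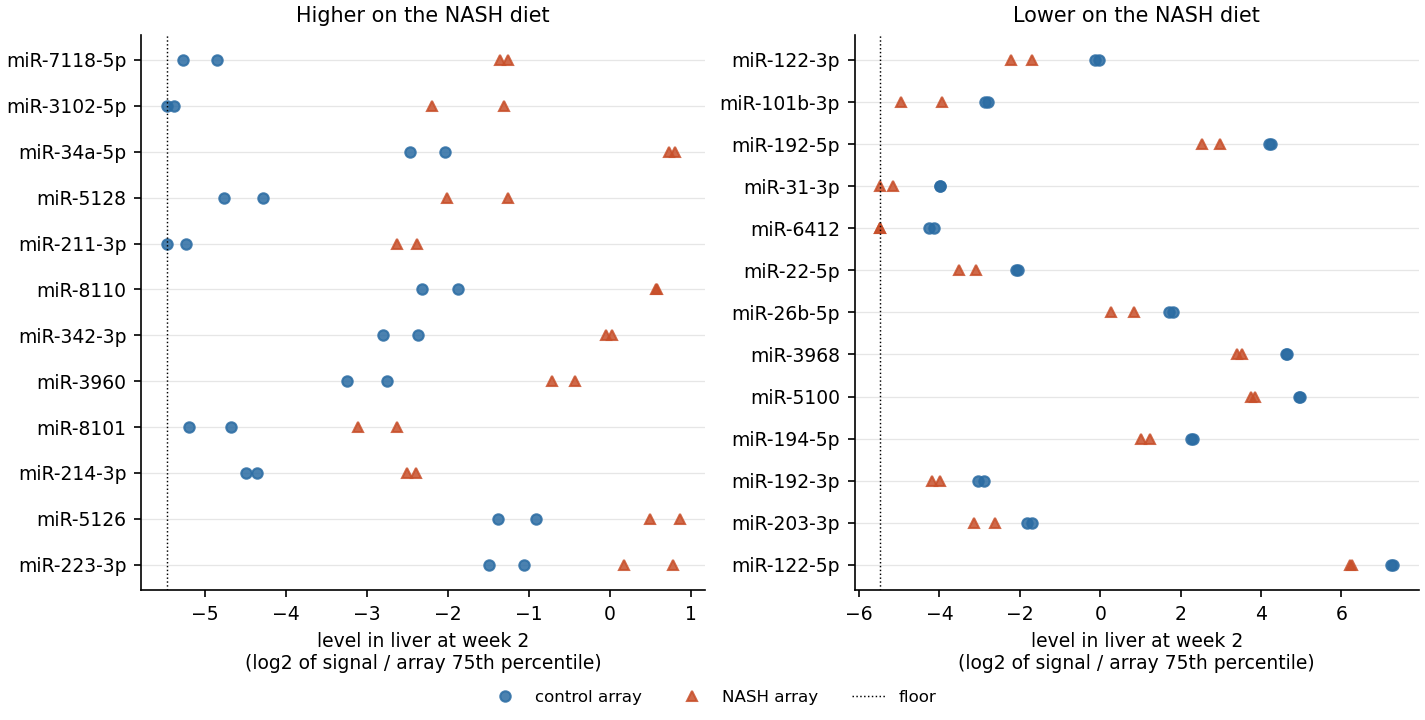
Level on each of the 4 arrays (circles control, triangles NASH; horizontal axis, log2 of signal over the array's 75th percentile) for the 12 members furthest up and the 12 furthest down among those detected on all 4 arrays with an adjusted p under 0.05, with miR-122-5p added. The dotted line is the floor of -5.47; the 2 diets do not overlap for any miRNA shown, and the control pair lies close together on the right panel while the NASH pairs are wider apart for most.

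Immune cell miRNAs were mixed: of 12 members 5 were called higher, 2 fell and 5 did not pass, with a median of 0.40, beside 18.3% higher and 12.4% lower over all tested. miR-342-3p, abundant in lymphocytes and located inside the span of Evl (chr12:108658680-108658702), had levels of -2.80 and -2.37 on control arrays and 0.03 and -0.05 on NASH arrays. Its difference of 2.58 (SE 0.17, adjusted p = 1.3e-04) was 5.97-fold, and its other arm miR-342-5p rose from not well above background to a level at least 1.28-fold higher. miR-223-3p, the miRNA of neutrophils and other myeloid cells, had levels of -1.49 and -1.06 against 0.17 and 0.78. Its difference was 1.75 (SE 0.32, adjusted p = 0.0073), and it passed neither without scaling nor with the percentile over all probes. miR-155-5p, induced by inflammatory signals in macrophages and lymphocytes, was detected on neither control array and on both NASH arrays, at -4.27 and -4.01. It was at least 2.39-fold higher (adjusted p = 0.0016). Like miR-132-3p below, miR-155-5p was a member only through its NASH arrays, so its direction is not a finding. The 5 higher calls of the list include miR-342-5p, miR-155-5p and miR-132-3p.

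Several other members of the same list did not pass or fell. miR-142a-3p, expressed across blood cell lineages, had levels of -0.77 and -0.39 in control and -0.85 and 0.01 in NASH liver; the 2 diets overlapped and the difference of 0.16 (SE 0.42) did not pass. miR-146a-5p was at -2.03 and -1.57 against -1.57 and -1.28 and did not pass (adjusted p = 0.22), and miR-150-5p of mature lymphocytes, at the floor on both control arrays and at -4.88 and -4.99 on the NASH arrays, had a difference of 0.54 (adjusted p = 0.052). miR-511-3p, from an intron of the macrophage receptor gene Mrc1, was at -2.54 and -2.33 in control and -3.44 and -2.92 in NASH liver. It fell by 0.75 (adjusted p = 0.040), a call lost without control replicate 1 (adjusted p = 0.078), control replicate 2 (0.176) or NASH replicate 1, without which the difference was -0.48 (0.170). The list had 3 higher calls without scaling or with the percentile over all probes and 2 under normexp, and 6 with total signal per miRNA and 7 with the floor times 0.5. Over only the miRNAs detected on all liver arrays it had 2 higher and 2 lower calls. The summed signal of the 12 members was 1.02 and 1.31 in control and 1.83 and 2.25 in NASH liver.

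miR-132-3p and miR-212-3p come from a shared transcript that neuronal activity and CREB induce. miR-132-3p was detected on neither control array and reached -4.28 and -4.26 on the NASH arrays, at least 2.18-fold higher (adjusted p = 1.3e-04); it was a member only through its NASH arrays, so its direction is not a finding. miR-212-3p had levels of -1.50 and -1.58 in control and -2.31 and -2.26 in NASH liver and fell by 0.74 (SE 0.04, adjusted p = 7.3e-05). 

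Stellate cell and fibrosis miRNAs had 4 increases and no decrease among 9 members, with a median of 0.72. miR-214-3p (chr1:162223438-162223459), made with miR-199a from the Dnm3os transcript of activated stellate cells and fibroblasts, had levels of -4.49 and -4.36 in control and -2.40 and -2.51 in NASH liver. Both NASH values were near 2 units higher, and the difference of 1.97 (SE 0.14, adjusted p = 1.7e-04) was 3.92-fold. miR-199a-5p rose by 0.81 (adjusted p = 0.025), but miR-199a-3p, at -1.26 and -0.88 against -1.05 and -0.39, did not pass. The miR-199a-5p call was lost without control replicate 1 (adjusted p = 0.112), NASH replicate 1 (0.075) or NASH replicate 2 (0.085). The X-linked pair miR-221-3p and miR-222-3p, which promote proliferation in several cell types, rose by 0.82 and by at least 1.55-fold. miR-21a-5p, which is known for increases in fibrosis, was at 4.50 and 4.31 in control and at 3.43 and 4.47 in NASH liver. Its NASH arrays were 1 unit apart and straddled the control pair, and it did not pass. The summed signal of the 9 members did not separate the diets, at 4.56 and 4.40 against 3.63 and 4.59. The list had 1 higher call with the percentile over all probes and 2 with no scaling.

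Red cell and endothelial miRNAs had low medians with wide spread between the NASH arrays. miR-144-3p, which with miR-451a is made in erythroid cells, was at -2.35 and -2.47 in control; it was at the floor on NASH replicate 1 and at -4.11 on NASH replicate 2. With NASH replicate 1 set at the floor the difference was -2.38 (SE 0.68, adjusted p = 0.040), so its size depends on the floor; the call was lost without control replicate 1 (adjusted p = 0.125), control replicate 2 (0.136) or NASH replicate 1 (-1.70, 0.181). miR-144-5p fell by 1.19 (adjusted p = 0.0059), with both NASH values at the floor, so this size also depends on the floor. miR-451a had levels of 2.53 and 2.68 against 0.74 and 1.67, a difference of -1.40 (SE 0.46) that did not pass (adjusted p = 0.061), and miR-486a-5p was at 0.17. Of the 4 red cell members 2 fell and 2 did not pass, and none passed without scaling or with the percentile over all probes. miR-126a-3p and miR-126a-5p, from an intron of the endothelial gene Egfl7, were at -0.67 (adjusted p = 0.060) and -1.36 (0.084), and neither passed; both passed under normexp, with total signal per miRNA, with the floor times 0.5 and over only the miRNAs detected on all arrays. The summed red cell signal was 2.60 and 2.74 against 0.81 and 1.72, and the endothelial one 2.76 and 2.91 against 1.88 and 2.41.

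Of 8 epithelial members 2 fell and 6 did not pass, beside 12.4% lower over all tested. miR-31-3p had levels of -3.98 on both control arrays and was at the floor and at -5.15 on the NASH arrays, a difference of -1.34 (SE 0.17, adjusted p = 0.0016). miR-203-3p, an epithelial differentiation miRNA, was at -1.83 and -1.70 against -3.13 and -2.61 and fell by 1.11 (adjusted p = 0.012). It did not pass without control replicate 2 (adjusted p = 0.064) or NASH replicate 1 (0.058). The miR-200 family, which holds the epithelial state by repressing ZEB factors, had 0 of 5 members passing, and miR-200b-3p was at 0.38 (SE 0.42). The summed epithelial signal was -0.17 and -0.10 in control and -0.62 and -0.50 in NASH liver. For each of these marker lists, the part that cell numbers played in the differences was not tested.

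**Figure D3:**
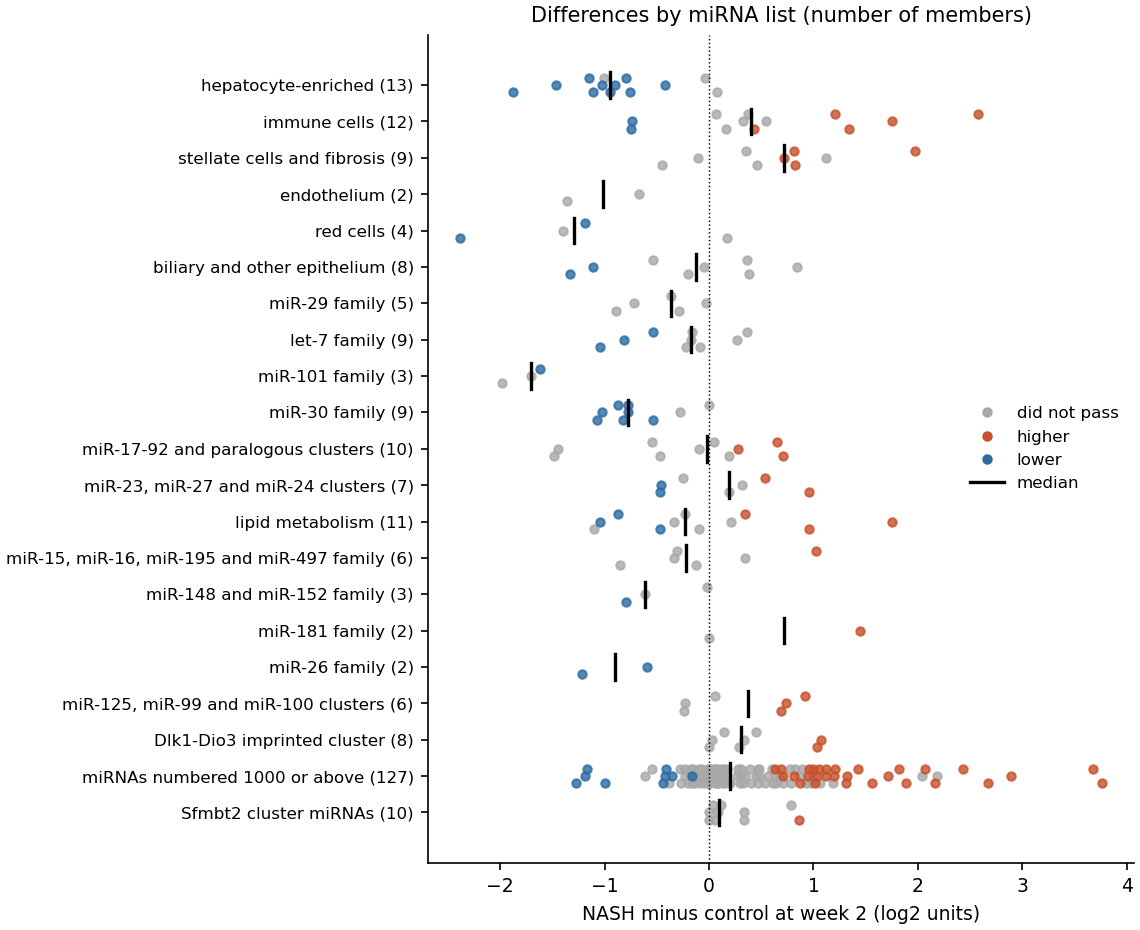
Difference between NASH and control liver at week 2 (log2 units) for each member of each miRNA list; orange and blue points passed an adjusted p of 0.05, grey points did not, and the black bar is the list's median. The hepatocyte list lies at a median of -0.95 and the miR-30 family at -0.78, while immune, stellate and later-numbered miRNAs have medians above 0.

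The miR-30 family, widely expressed and abundant in epithelial and liver cells, had 7 decreases among 9 members (median -0.78) and no increase. miR-30c-5p had levels of 1.53 and 1.71 in control and 0.77 and 0.73 in NASH liver and fell by 0.87 (SE 0.10, adjusted p = 0.0012). miR-30e-5p fell by 1.07, miR-30b-5p by 1.02 and miR-30a-5p by 0.78; miR-30d-5p, at -1.42 and -1.20 against -1.46 and -1.72, did not pass. Both arms of the miR-30a and miR-30e hairpins fell. The 3 family members matched to a sequence with the seed GUAAACA, miR-30a-5p, miR-30c-5p and miR-30e-5p, all fell. miR-30b-5p did not pass without control replicate 1 (adjusted p = 0.051), control replicate 2 (0.096) or NASH replicate 1 (0.101). The list had 3 lower calls with the percentile over all probes and 0 without scaling.

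The let-7 family, which restrains growth genes in differentiated cells, had 3 decreases among 9 members. All 9 carry GAGGUAG; let-7g-5p, let-7f-5p and miR-98-5p fell, and the other 6 did not pass. let-7g-5p (chr9:106178846-106178867, inside the span of Wdr82) was at 3.06 and 3.11 against 1.86 and 2.22 and fell by 1.05 (adjusted p = 0.0047). let-7f-5p was at 4.21 and 4.34 against 3.32 and 3.59 and fell by 0.82, whereas let-7a-5p, at 3.93 and 4.06 against 3.82 and 3.72, had a difference of -0.22 and did not pass. miR-98-5p fell by 0.54; its call was lost without control replicate 1 (adjusted p = 0.050), control replicate 2 (0.150) or NASH replicate 1 (0.136). let-7f-5p is made from 2 loci, beside miR-98 in Huwe1 and on chromosome 13, and its value cannot be assigned to either. Under quantile normalization 2 let-7 members were called higher and 2 lower, and none was called without scaling or with the percentile over all probes.

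The miR-101 family, known for repressing the methyltransferase EZH2, had the lowest median of any list, -1.70 over 3 members, and a single call. miR-101a-3p was at -0.05 and -0.01 in control and -2.29 and -1.17 in NASH liver (adjusted p = 0.052), and miR-101c at -0.37 and -0.34 against -2.98 and -1.68 (0.055). miR-101b-3p, at -2.80 and -2.86 against -4.96 and -3.94, fell by 1.62 (SE 0.45, adjusted p = 0.035). On each of them NASH replicate 1 was more than 1 unit below NASH replicate 2, and without NASH replicate 2 all 3 passed. The miR-101b-3p call was lost without control replicate 1 (adjusted p = 0.114), control replicate 2 (0.126) or NASH replicate 1 (-1.11, 0.152). The 3 sequences share the stretch acaguacugugaua of 14 bases, and whether their probes read a common signal was not tested. miR-26a-5p fell by 0.60 (SE 0.07, adjusted p = 0.0011) and miR-26b-5p, at 1.71 and 1.81 against 0.26 and 0.84, by 1.21; the latter did not pass without control replicate 2 (0.064) or NASH replicate 1 (0.057). Of 5 members of the miR-29 family, which represses collagen genes, none passed in limma, with differences from -0.89 to -0.03; 2 were called lower under quantile normalization, and 2 in a fit of the 4 week 2 arrays alone.

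Some near-identical pairs from separate loci had unlike differences between the diets. The pairs below are given because their members differed, and the share of all such pairs that did so was not counted. Other miRNAs of a shared seed moved alike: miR-30a-5p, miR-30c-5p and miR-30e-5p all fell, as did miR-26a-5p and miR-26b-5p. The log2 ratio of a pair on the same array does not depend on any scaling that divides a whole array by a single value, but quantile normalization and background correction can move it. miR-27a-3p (chr8:84208727-84208747) and miR-27b-3p (chr13:63300760-63300780) differ by a single substitution, C19U, counted from the 5′ end of miR-27a. Their log2 ratio, miR-27a over miR-27b, was -0.56 and -0.46 on control arrays and 0.96 and 0.88 on NASH arrays, a change of 1.43. Taken alone, miR-27a-3p rose by 0.96 (adjusted p = 0.018) and miR-27b-3p fell by 0.47 (adjusted p = 0.039). The neighbouring miR-23 pair went the same way: the ratio of miR-23a-3p over miR-23b-3p was -0.50 and -0.34 in control and 0.55 and 0.58 in NASH liver, a change of 0.99. miR-23a-3p rose by 0.53 (adjusted p = 0.040), and miR-23b-3p fell by 0.46 (adjusted p = 0.011) but was at 0.09 under quantile normalization, where miR-23a-3p was at 0.88. miR-23a and miR-27a share a transcript on chromosome 8, and miR-27b lies inside the span of Aopep on chromosome 13. The single calls of these 4 were each lost without some array: miR-27a-3p without control replicate 1 (0.086), NASH replicate 1 (0.064) or NASH replicate 2 (0.069), miR-27b-3p without any of the 4 (0.051 to 0.178), miR-23a-3p without control replicate 1 (0.160), NASH replicate 1 (0.081) or NASH replicate 2 (0.140), and miR-23b-3p without control replicate 2 or NASH replicate 1 (both 0.064). The ratios themselves were not tested.

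miR-15b-5p, inside the span of Smc4, and miR-15a-5p, inside that of Dleu2, share the seed AGCAGCA and have equal GC content (40.9%). miR-15b-5p was at 0.28 and 0.45 in control and 1.45 and 1.32 in NASH liver and rose by 1.02 (SE 0.12, adjusted p = 0.0012). miR-15a-5p was at 1.62 and 1.65 against 0.51 and 1.07 and did not pass (-0.85, adjusted p = 0.060). The log2 ratio of the pair changed by 1.88. miR-16-5p, encoded at both loci, was at -0.31 and did not pass.

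miR-99b-5p rose by 0.92 (adjusted p = 0.0053) with miR-125a-5p (0.74) and miR-125a-3p (at least 1.53-fold) from the same Spaca6 cluster, while miR-99a-5p (-0.24) and miR-125b-5p (0.05) did not pass; the ratio of miR-99b to miR-99a changed by 1.16. The miR-125a-5p call was lost without control replicate 1 (adjusted p = 0.067), control replicate 2 (0.054) or NASH replicate 1 (0.082). let-7i-5p over let-7g-5p, which differ by G17A and U19A, changed by 1.32, and let-7e-5p over let-7f-5p, which differ by G9U and G12A, by 1.18. miR-148b-3p over miR-148a-3p, which differ by U9C and C10U and have equal GC content, changed by 0.77; under quantile normalization miR-148a-3p alone was at -0.02. In each of these 3 pairs the second member fell and the first did not pass.

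The miR-17-92 cluster and its paralogues, which promote cell cycle entry, had 3 increases among 10 members (median -0.02), beside 18.3% higher over all tested. miR-17-3p rose by 0.65 (adjusted p = 0.0013), miR-18a-5p by 0.71 (0.046) and miR-93-5p by 0.27 (0.032), the last with a sign that turned under the percentile over all probes. miR-19a-3p and miR-19b-3p, at -1.45 and -1.48, did not pass (adjusted p = 0.24 and 0.083); NASH replicate 1 was more than 1 unit below NASH replicate 2 on both. miR-18a-5p and miR-93-5p were lost without any of the 4 arrays (adjusted p = 0.102 to 0.155 and 0.057 to 0.124). Among 11 members tied to lipid metabolism, 3 rose, 3 fell and 5 did not pass. miR-33-5p, which lies in an intron of the sterol regulator gene Srebf2 and represses the cholesterol exporter ABCA1, was at -4.30 and -4.32 in control. On NASH arrays it was at the floor and at -5.23, a difference of -1.04 (SE 0.15, adjusted p = 0.0030). miR-103-3p (-0.23) and miR-107-3p (-0.34), which lie in introns of pantothenate kinase genes, did not pass, and neither did miR-378a-3p (0.21) or miR-378a-5p (-0.10).

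Among smaller sets, miR-181a-5p, known from lymphocyte development, was at the floor and at -5.28 in control and at -3.79 and -4.08 in NASH liver. It rose by 1.44 (SE 0.14, adjusted p = 7.0e-04), a size that depends on the floor. In the X-linked cluster inside Clcn5, named after its values were seen, 4 of the 5 members matched to coordinates there were called higher: miR-500-3p by 0.91, miR-188-5p by at least 1.66-fold, miR-362-5p by 0.52 and miR-532-3p by 0.49, and miR-362-3p was at -0.53 without passing. For miR-362-5p and miR-532-3p control replicate 1 lay at the floor. miR-532-5p, the other arm of the miR-532 hairpin, rose by 0.88. The imprinted Dlk1-Dio3 cluster, active in fetal liver, had 2 members called higher among 8, beside 18.3% of all miRNAs tested. Both, miR-127-3p and miR-379-5p, were detected on neither control array and so were members only through their NASH arrays; they were at least 1.99-fold and 1.93-fold higher (adjusted p = 0.012 and 0.050). The miR-379-5p call was lost without control replicate 1 (0.125), control replicate 2 (0.149) or NASH replicate 2 (0.63, 0.205), and that of miR-127-3p without control replicate 2 (0.053) or NASH replicate 2 (0.061). Of 10 members named as the Sfmbt2 cluster, miR-466i-5p alone rose, by 0.86.

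miRNAs numbered 1000 or above, which were annotated later and mostly have no settled function, made up 127 of the 352 members. Of these 29 rose, 9 fell and 89 did not pass, with a median of 0.20. Over all tested miRNAs 18.3% were called higher and 12.4% lower, so the share called higher lay near the background. They held 7 of the 12 largest increases among passing members detected on all 4 arrays, beside 29 of all 71 higher calls. miR-7118-5p (chr15:89162882-89162903, inside the span of Plxnb2) was at -4.85 and -5.28 in control and -1.35 and -1.26 in NASH liver. Its difference of 3.76 (SE 0.37, adjusted p = 6.7e-04) was the largest of all members, 13.6-fold. miR-8110 had levels of -1.87 and -2.32 against 0.58 and 0.57, a difference of 2.67 (SE 0.49, adjusted p = 0.0071). miR-3102-5p was at -5.38 and the floor in control and at -2.19 and -1.31 in NASH liver (3.68, SE 0.81, adjusted p = 0.015). miR-211-3p, of lower number, behaved alike in level: -5.24 and the floor against -2.63 and -2.38 (2.85, adjusted p = 0.015).

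Several of these calls were lost when an array was left out. Without control replicate 2, miR-3102-5p (adjusted p = 0.071), miR-5128 (0.079), miR-211-3p (0.079), miR-3960 (0.152), miR-8101 (0.082) and miR-5126 (0.105) did not pass. Of these 6, miR-3102-5p and miR-3960 were also lost without control replicate 1 (0.052 and 0.078); miR-5128, miR-211-3p, miR-3960 and miR-5126 without NASH replicate 1 (0.055 to 0.105); and miR-3102-5p, miR-211-3p, miR-3960, miR-8101 and miR-5126 without NASH replicate 2 (0.061 to 0.110). Their differences without an array stayed between 1.59 and 3.76. miR-7118-5p and miR-8110 passed without any single array. With each array of week 2 left out in turn, the number of calls higher among the 127 was 17 without control replicate 1, 10 without control replicate 2, 13 without NASH replicate 1 and 29 without NASH replicate 2.

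Later-numbered miRNAs also gave some of the decreases. miR-3968 was at 4.63 and 4.65 in control and 3.40 and 3.52 in NASH liver and fell by 1.18 (SE 0.04, adjusted p = 9.4e-06). miR-5100 fell by 1.16 and miR-3963 by 0.99, and miR-6412, not well above background on either NASH array, was at least 2.41-fold lower. miR-6366 was at 7.20 and 6.97 against 6.86 and 6.74 and did not pass; its sign turned without scaling (0.01) and under quantile normalization (0.37).

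A further 50 members were detected on both NASH arrays and neither control array, and 9 on both control arrays and neither NASH array. Such miRNAs were members only through the diet in which they were bright, so their direction is not a finding; 13 of the 50 and 2 of the 9 passed. miR-2861, at -3.54 and -3.09 in NASH liver, was at least 4.23-fold higher (adjusted p = 0.014), and miR-6931-5p at least 3.49-fold (0.026). The miR-2861 call was lost without control replicate 1 (0.051), control replicate 2 (0.063) or NASH replicate 2 (0.064), and that of miR-6931-5p without any of the 4 (0.065 to 0.110). miR-7005-5p, detected on 1 control array, rose by 1.43 (adjusted p = 0.0036). miR-6538, detected on 1 control array but not well above background there, was at least 2.35-fold higher (0.046) and was lost without any of the 4 (0.106 to 0.155). In the other direction miR-137-3p, at -4.23 and -4.09 in control, was at least 2.49-fold lower, and miR-1948-3p at least 1.36-fold.

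The difference between diets varied with the base composition of the mature miRNA, a feature the choice of members did not use. Over the 226 members detected on all 4 arrays and matched to a sequence, the correlation of the difference with GC content was 0.47 (Pearson) and 0.45 (Spearman); these are correlations across miRNAs measured on the same 4 arrays, which are not independent. Members under 40% GC had a median of -0.55 (34 members, 2 higher and 7 lower), those of 40 to 50% -0.13 (73), those of 50 to 60% 0.06 (66) and those of 60 to 70% 0.34 (40). The 13 members of 70% or more had a median of 1.06, 7 of them higher and none lower. The printed sequences of miR-3102-5p, miR-8110, miR-8101 and miR-5126 (100% GC) are of this class, and those of miR-101a-3p, let-7f-5p and miR-26b-5p are of the class under 40%.

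The same gradient was present between arrays of the same diet, smaller in class medians but of like strength in correlation. The median of the class of 70% or more minus that of the class under 40% was 1.61 for NASH minus control, 0.47 for control replicate 1 minus control replicate 2 and 0.59 for NASH replicate 1 minus NASH replicate 2. Correlations of those 2 differences within a diet with GC content were 0.46 and 0.44 (Pearson) and 0.35 and 0.51 (Spearman). Between the diets they were 0.47 and 0.45. At week 1 the contrast between diets was -0.02 and at week 6 it was 0.62, with correlations of -0.01 and 0.23. The week 2 contrast was between 1.33 and 1.85 under other scalings, probe summaries and floors and 0.75 under normexp. The correlation with GC content was 0.46 among the brighter 113 members and 0.40 among the dimmer 113. The part of base composition in the differences of single miRNAs was not tested. The pairs miR-15a and miR-15b, miR-148a and miR-148b, and miR-125a-5p and miR-125b-5p have equal GC content. In the other pairs with both sequences matched, the member that rose relative to its partner was the richer in GC. GC content was 52.4% for miR-27a-3p and 47.6% for miR-27b-3p, and 63.6% for miR-99b-5p and 50% for miR-99a-5p. It was 40.9% for let-7i-5p, let-7e-5p and miR-26a-5p. Their partners let-7g-5p, let-7f-5p and miR-26b-5p had 36.4%, 31.8% and 33.3%.

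**Figure D4:**
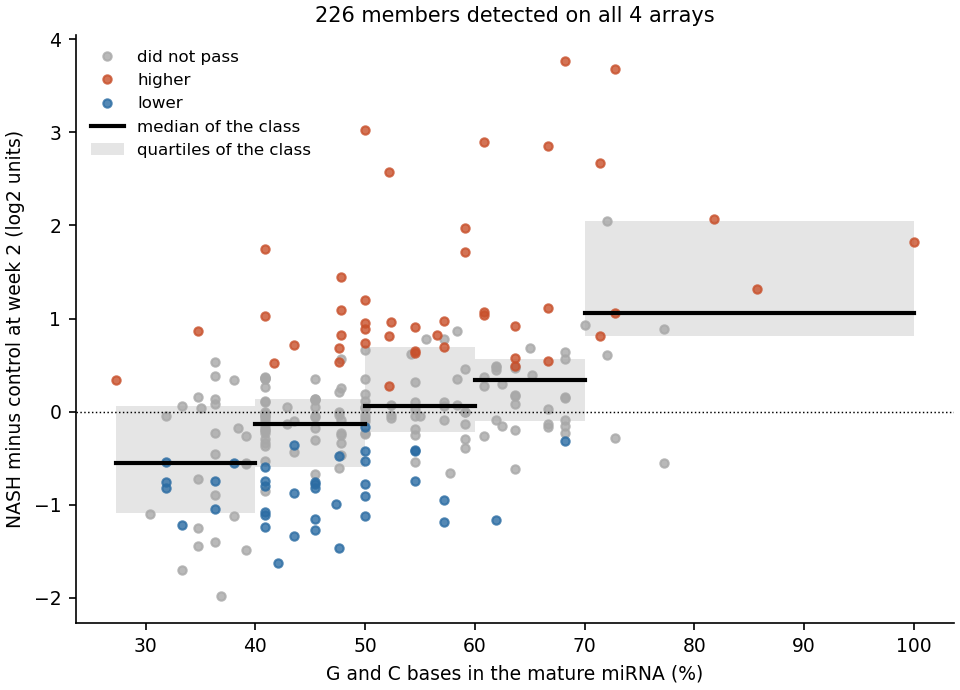
Difference between NASH and control liver at week 2 (log2 units) against the share of G and C bases in the mature miRNA (percent) for the 226 members detected on all 4 arrays and matched to a sequence. Points are coloured by call, black lines are class medians, rising from -0.55 to 1.06, and grey bands span the quartiles.

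Both arms were members for 35 hairpins. For 11 of them both arms passed, 7 with both lower and 4 with both higher, and for none did they pass in opposite directions; for 11 more a single arm passed. Over all miRNAs tested 18.3% were called higher and 12.4% lower. Lower on both sides were miR-122, miR-144, miR-192, miR-193a, miR-22, miR-30a and miR-30e, and higher on both sides were miR-125a, miR-342, miR-532 and miR-574. For miR-144, miR-125a, miR-342 and miR-574 the arms were not both detected on all 4 arrays. An arm that was a member mainly through its brighter diet could hardly pass the other way, so the choice of members favours agreement there. For miR-22 the arms fell by 1.24 (5p) and 0.76 (3p), with the 3p difference at 0 under quantile normalization and the 5p call lost without control replicate 2 (adjusted p = 0.063) or NASH replicate 1 (0.070).

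The week 2 difference was set against those at weeks 1 and 6, each of 2 against 2 arrays. These use other arrays of the same design, and week 1 lay on another slide. At week 1 the diet called 45 miRNAs (11.6%; 6.19% higher and 5.41% lower), and at week 6 it called 110 (28.4%; 12.4% higher and 16% lower). The difference in effect between weeks 2 and 1 passed for 13 miRNAs (3.35%), and that between weeks 6 and 2 for 5 (1.29%). miR-7118-5p was 2.72 log2 units further up at week 2 than at week 1 (SE 0.52, adjusted p = 0.047), and miR-214-3p 1.24 further (SE 0.20, adjusted p = 0.032). miR-193a-3p and miR-3968 were both 0.48 further down (adjusted p = 0.032 and 0.0068). miR-34a-5p was at 1.97, 3.02 and 3.58 at weeks 1, 2 and 6, miR-342-3p at 1.69, 2.58 and 2.95, and miR-122-5p at -0.67, -1.02 and -1.25, and no step between neighbouring weeks passed for these 3. The hepatocyte list had 6, 10 and 10 lower calls at the 3 times.

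The counts of differences between weeks were small and depended on the fit: the step from week 1 to week 2 gave 0 calls in limma after normexp (29 at an unadjusted p of 0.05), 6 without NASH replicate 1 and 28 without control replicate 1; the step from week 2 to week 6 gave 21 without control replicate 1, 11 without control replicate 2 and 17 without NASH replicate 2. Of the 5 calls for weeks 6 and 2, that of miR-434-3p in the Dlk1-Dio3 cluster was the largest: it was detected on both NASH arrays at week 2 but lay at 0.03, and stood at 1.08 at week 6, a step of 1.05 (SE 0.15, adjusted p = 0.029). Of the other 4, miR-342-5p, miR-574-3p and miR-7241-5p had 2 week 2 values at the floor, and miR-193a-5p lay just above it.

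**Figure D5:**
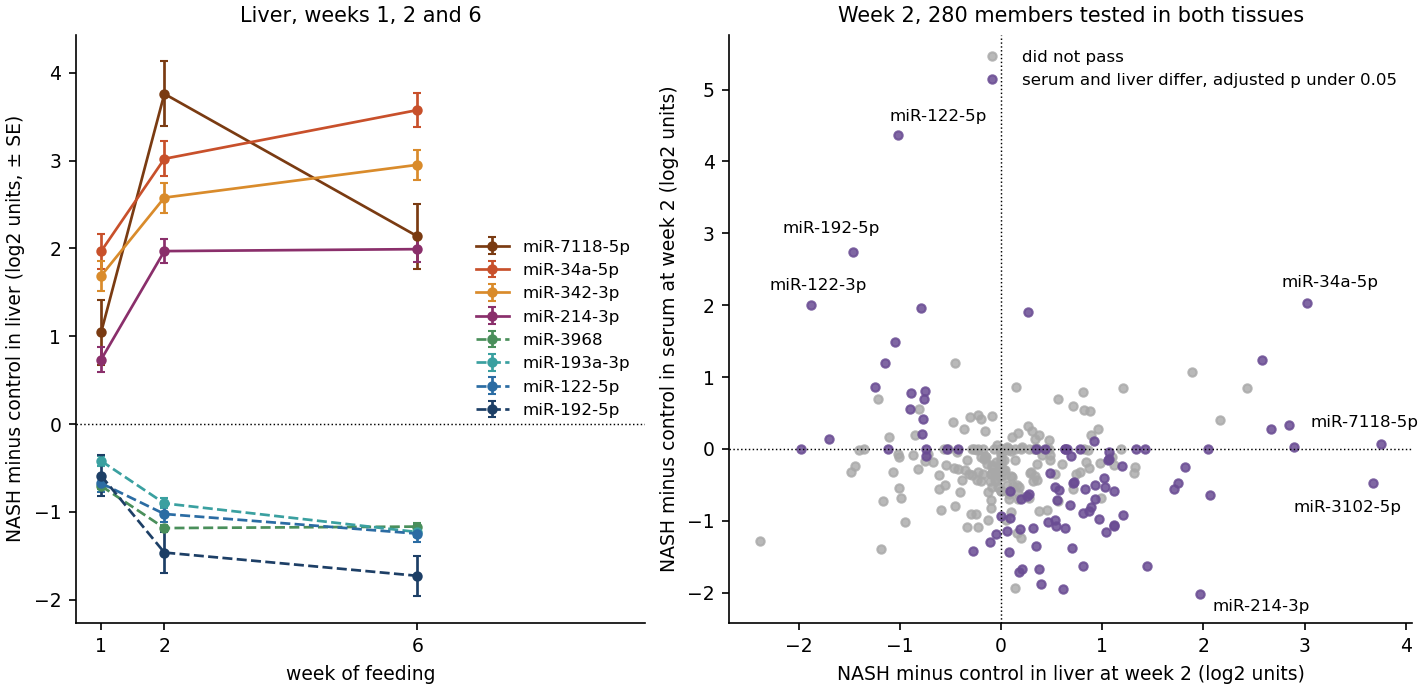
Left, NASH minus control in liver at weeks 1, 2 and 6 of feeding (log2 units, bars ± SE of the fit) for 8 members; miR-7118-5p is highest at week 2, at 3.76. Right, the week 2 difference in liver (horizontal) and serum (vertical) for the 280 members tested in both, purple where serum and liver differ at an adjusted p under 0.05; miR-122-5p, miR-192-5p and miR-122-3p lie at upper left, lower in liver and higher in serum.

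In serum taken at the same week, several miRNAs that were lower in NASH liver were higher. Of 293 miRNAs tested in both tissues, the effects differed for 97 (33.1%), with serum above liver for 21 (7.17%) and below for 76 (25.9%); 95 of the 97 were members. miR-122-5p was -1.33 and 1.72 in control serum and 4.33 and 4.79 in NASH serum, a serum difference of 4.36 (SE 0.70, adjusted p = 5.8e-04) and a serum minus liver difference of 5.39 (SE 0.99, adjusted p = 0.0015). The 2 control sera were 3 units apart, and both lay below both NASH sera. For miR-192-5p serum minus liver was 4.20, for miR-122-3p 3.88, for miR-148a-3p 2.76 and for let-7g-5p 2.53 (adjusted p = 0.046). Of the 39 miRNAs called lower in liver and tested in serum, 9 were called higher in serum with a difference between tissues that passed, and 4 were called lower there. The 39 were chosen for a low liver difference, which enters the test between tissues, so the choice favours serum above liver. In serum 19.1% of the 293 were called, 4.78% higher and 14.3% lower.

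The increases in liver were likewise set against serum. Of 63 called higher in liver and tested in serum, 43 had a lower effect in serum, beside 25.9% of all 293. The 63 were chosen for a high liver difference, which enters that test, so the choice favours a lower effect in serum. Of the 63, 4 were called higher in serum, a share near the 4.78% of all 293. Among them were miR-34a-5p (2.03, adjusted p = 5.2e-05) and miR-342-3p (1.23, adjusted p = 0.023). miR-214-3p went the opposite way: it was at -1.12 and -0.77 in control serum and -2.87 and -3.07 in NASH serum, and serum minus liver was -3.99 (SE 0.39, adjusted p = 1.15e-05). miR-181a-5p did likewise (-3.08). miR-3102-5p, miR-7118-5p and miR-5128 were near no difference in serum (-0.47, 0.07 and 0.03), with serum minus liver at -4.15, -3.69 and -2.87. Serum and liver were scaled apart, so that each difference is relative to the bright probes of its own tissue.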

How the data were processed

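Total RNA was extracted from liver with ISOGEN II and 100 ng was labelled with Cy3 for 1-colour Agilent mouse miRNA arrays, per the labels' protocols. The deposited values are spot intensities from Agilent Feature Extraction 11.5, per the submitters' processing notes; per the file headers they are background-subtracted and not scaled between arrays. The flags that call a spot well above background or a miRNA detected are deposited 0 or 1 values of the same software.

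Unflagged spots were averaged per probe. Each liver array was divided by its 75th percentile over 299 probes well above background on all liver arrays (253 for serum), floored at a fixed level (each array's 5th percentile of signals well above background, then the median of these), and turned into log2; the probe with the highest mean stood for each miRNA. A miRNA was tested if detected on 2 or more liver arrays: 388 in liver, 426 in serum, 293 in both. limma 3.58.1 in R 4.3.3 fitted 6 groups over the 12 liver arrays with eBayes and Benjamini-Hochberg adjustment at 0.05. For serum and serum minus liver it fitted 12 groups over all 24 arrays, with adjustment over the 293. That fit assumes for each miRNA the same spread in liver and serum, which was not tested. The low number of arrays limits the precision. An "at least" fold sets the bright group's mean against the lowest signal well above background on each dim array, or the dim probe's own value where higher; where the fold against the floor was smaller, that fold is given. The script was tested on simulated data for NASH against control at week 2: it recovered 23.9% of changes of 0.5 log2 units and 60.4% of changes of 1, and 5.88% of 51 calls were false.

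miRNAs were named by these rules: the 12 furthest in each direction among passing members detected on all 4 arrays, the 6 furthest among those detected in 1 diet, members of the lists, the 5 of highest control signal, up to 5 per direction for differences between weeks or tissues, and both arms of such hairpins. The members and lists were chosen with earlier results of these data known, so a list's count is no independent support. Alternatives were other scalings, normexp background correction on the median spot signal (the mean signal was not used here; offset 50), total signal per miRNA, the mean of probes, the floor times 0.5 or 2, other filters, a replicate block, a fit of 4 arrays, treat against 0.5 log2 units, trend with robust eBayes, and leaving out each array.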

Additional observations from a re-analysis of the deposited data

Results flagged for a closer look

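The diet difference changed between weeks or tissues, by limma's test of the difference itself, for the following miRNAs, with no cause tested. From week 1 to week 2 the effect in liver moved by -0.48 log2 units for miR-193a-3p, -0.48 for miR-3968 and -0.36 for miR-7241-5p. In the other direction it moved by 2.72 for miR-7118-5p, 1.24 for miR-214-3p, 1.11 for miR-483-5p, 0.72 for miR-222-3p and 0.57 for miR-484. From week 2 to week 6 it moved by -0.40 for miR-193a-5p, -0.14 for miR-574-3p, 1.05 for miR-434-3p, 0.36 for miR-7241-5p and 0.28 for miR-342-5p. Of these, miR-7241-5p, miR-483-5p, miR-222-3p, miR-484, miR-574-3p, miR-434-3p and miR-342-5p had at least 1 week 2 value at the floor, which carries no spread. For miR-483-5p and miR-222-3p both week 2 control values lay at the floor, and the step equalled the whole week 2 difference.

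At week 2 the diet effect was higher in serum than in liver by 5.39 for miR-122-5p, 4.20 for miR-192-5p, 3.88 for miR-122-3p, 2.76 for miR-148a-3p and 2.53 for let-7g-5p. The effect in serum less the effect in liver was -4.15 for miR-3102-5p, -3.99 for miR-214-3p, -3.69 for miR-7118-5p, -3.08 for miR-181a-5p and -2.87 for miR-5128.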

How the results depend on the processing

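Over 80 named miRNAs and all alternatives, 1775 values kept their direction and their side of the threshold, 433 kept the direction but no longer passed, 2 newly passed and 8 changed sign. The sign changes were miR-6366 without scaling (0.015) and under quantile normalization (0.37), miR-23b-3p under quantile normalization (0.0897), miR-93-5p (-0.0712) and miR-185-5p (-0.0011) with the percentile over all probes, and miR-484 (-0.11), miR-574-3p (-0.11) and miR-434-3p (-0.0769) under normexp; the cause was not tested. The week 2 count in liver of 71 higher, 48 lower and 119 in all became 25, 26 and 51 with the percentile over all probes, 111, 82 and 193 with the floor times 0.5, 33, 30 and 63 with no filter on dim miRNAs, 47, 29 and 76 on the 4 week 2 arrays alone, and 18, 14 and 32 with treat. It was 41 higher and 76 in all with the floor times 2, 19 and 63 under normexp, 46 higher under quantile normalization, 2 lower and 66 in all without scaling, 74 lower with median centring and 80 lower with total signal. Leaving out an array gave 44 to 74 higher, 33 to 56 lower and 81 to 130 in all. 

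The 13 calls for week 2 against week 1 became 3 without scaling, 6 under quantile normalization, 5 with the mean of probes, 7 and 3 with the floor times 0.5 and 2, 1 with no filter and 2 with miRNAs detected on all arrays. In limma normexp gave 0 (29 at an unadjusted p of 0.05) and treat 0 (8). The 5 calls for week 6 against week 2 became 9 with the percentile over all probes, 8 with median centring, 2 without scaling, 10 with total signal and 2 with the floor times 2. In limma they were 0 under normexp (11 at an unadjusted p of 0.05), the floor times 0.5 (61), no filter (44), all-array detection (27) and treat (8). Leaving out an array gave 2 to 28 and 2 to 27. The 97 calls for serum against liver became 45 with the percentile over all probes, 21 without scaling, 51 under quantile normalization, 59 with no filter and 48 with all-array detection, and 51 to 76 without an array. 

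The contrast between GC-rich and GC-poor members, an alternative chosen after seeing the data, was 0.75 under normexp. Replicate numbers are shared by the 2 diets but the labels do not say that they pair samples: deviations of same-numbered week 2 arrays correlated at 0.33 over all tested miRNAs, with 2 pairs. With the replicate number within weeks as a block, 97 of the 119 week 2 calls remained, and the week contrasts gave 0 calls each in limma (80 and 43 at an unadjusted p of 0.05); with the slide row as a replicate block over weeks they gave 4 and 3, and all 119 remained. Both endothelial members were called lower under each of these blocks, and 6 immune members higher with the slide row. Values at the floor, 35.6% of those tested in liver, have no order.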
